A study of Mus musculus with 10 samples.

Results

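Interferon-stimulated genes were followed by RNA sequencing in reporter-positive cells that had been sorted out of the brain hemisphere damaged by ischemia, in female mice. The 51 genes were chosen by name as well known targets of type I and type II interferons, without a threshold on any value of these libraries. All 51 had a row among the 28585 genes of the deposited count table, and all 51 were among the 15151 genes that passed the filter on low counts. 4 libraries (replicates 23, 24, 26 and 27) held CD11c-eYFP+ cells of Tg(Itgax-Venus)1Mnz mice aged 13 to 14 weeks, in which a yellow fluorescent protein is driven by the promoter of Itgax, the CD11c gene. They are called transgenic here. 3 libraries (replicates 3, 11 and 15) held CD11c-eYFP+ cells of C57BL/6 mice aged 15 to 16 weeks whose circulation had been joined by parabiosis to that of a Tg(Itgax-Venus)1Mnz partner, so that fluorescent cells derive from the partner by design. They are called parabiotic here, and replicate 15 was placed among them by its title and age. Its labels give no cell type and no sex, and they name C57BL/6 as its strain but Tg(Itgax-Venus)1Mnz as its genotype, without the word parabiotic, so its host mouse rests on the title. The last 3 libraries (replicates 39, 40 and 41) held CX3CR1+ microglia of CX3CR1CreERT2:Rosa26-tdT mice aged 13 to 14 weeks, in which a Cre recombinase under the promoter of the fractalkine receptor gene switches on a red fluorescent protein. Microglia are the resident macrophages of the brain. Ischemia was common to all 10 libraries, and no uninjured brain was analysed here. The labels do not say how many mice went into a library. P-values therefore judge differences against the spread between these libraries, estimated over all groups together, and not between mice.

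Interferons are secreted proteins that cells release on sensing viral or self nucleic acids. Type I interferons act through the receptor chains IFNAR1 and IFNAR2, the kinases JAK1 and TYK2 and a complex with STAT2 and IRF9 that binds the interferon-stimulated response element (ISRE) in promoters. Interferon gamma acts through IFNGR1, IFNGR2, JAK1 and JAK2, and its signal reaches promoters at the gamma-activated site (GAS). The induced genes code for sensors, transcription factors and proteins that block the replication of viruses, and microglia as well as infiltrating myeloid cells are known to express them after brain injury.

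Promoter windows of 40 of the 51 genes were found in the RefSeq table of build GRCm38.p6, which runs from 250 bases before to 50 bases after an annotated transcript start. A search on both strands for the core of the ISRE, which is GAAA, any 2 bases and GAAA again, found a match in 22 of the 40 genes (55.0%), against 3.99% of all 27025 genes with a window. The GAS, written TTCNNNGAA, was matched in 12 of the 40 genes (30.0%), against 9.55% of all genes. 7 genes held both motifs, 5 the GAS alone and 13 neither, and the 2 motifs may overlap. A match describes the letters of the window and is not a measured binding site. The ISRE core was present in 6 of 7 matched GBP and IRG genes, in 3 of 4 IFIT genes and in 1 of 5 transcription factor genes. The median log2 fold change of parabiotic cells against microglia was -1.43 over the 22 genes with an ISRE core and -1.21 over the 18 matched genes without one. Over the 11 genes without a window, whose motifs are not known, it was lower still, at -1.72. No window was found for Oas2, Rtp4, Parp14, Usp18, Iigp1, Zbp1, Parp9, Ifi27l2a, Mx1, Dhx58 and Mx2.

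The stretch from 250 to 41 bases before the start of 7 genes follows, from RefSeq on GRCm38.p6, 5′ to 3′ on the strand of the gene, with matches of either motif in capitals. Isg15 (chr4:156200859-156201068, minus strand) is shown because 3 overlapping ISRE cores begin 78, 72 and 66 bases before its start. Ifit3 (chr19:34583279-34583488, plus strand) and Ifit3b (chr19:34607707-34607916, plus strand) are shown as near-identical copies with the same pair of ISRE cores on the opposite strand. Gbp5 (chr3:142496684-142496893, plus strand) held an ISRE core 165 bases and GAS matches 245 and 52 bases before the start, and Irf1 (chr11:53769764-53769973, plus strand) held a GAS 90 bases before it. Both were called higher in transgenic than in parabiotic cells. Ifitm3, which also held a GAS, was called lower, and the other genes with a GAS were not called. Ifi47 (chr11:49076337-49076546, plus strand) and Trim25 (chr11:88999153-88999362, plus strand), the genes called higher in parabiotic cells than in microglia, held no match of either motif. The other genes with neither motif had negative fold changes in that comparison, and Cmpk2 (-2.27) and Herc6 (-2.12) were among those called lower.
Isg15: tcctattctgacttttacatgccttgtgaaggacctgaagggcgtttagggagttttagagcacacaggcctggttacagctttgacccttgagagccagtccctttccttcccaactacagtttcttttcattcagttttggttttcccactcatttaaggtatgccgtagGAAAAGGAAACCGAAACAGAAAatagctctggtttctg
Ifit3: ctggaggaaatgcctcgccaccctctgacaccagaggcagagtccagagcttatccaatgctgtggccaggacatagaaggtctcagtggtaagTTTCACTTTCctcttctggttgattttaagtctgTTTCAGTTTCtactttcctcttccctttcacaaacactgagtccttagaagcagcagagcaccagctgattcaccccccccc
Ifit3b: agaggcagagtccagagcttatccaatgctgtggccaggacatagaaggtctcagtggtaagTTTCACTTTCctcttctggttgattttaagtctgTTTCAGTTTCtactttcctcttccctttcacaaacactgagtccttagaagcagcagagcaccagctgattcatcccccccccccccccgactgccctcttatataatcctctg
Gbp5: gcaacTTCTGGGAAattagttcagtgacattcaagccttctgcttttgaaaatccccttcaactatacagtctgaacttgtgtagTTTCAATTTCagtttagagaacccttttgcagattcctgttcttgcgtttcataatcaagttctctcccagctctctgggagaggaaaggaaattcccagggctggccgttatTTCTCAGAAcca
Irf1: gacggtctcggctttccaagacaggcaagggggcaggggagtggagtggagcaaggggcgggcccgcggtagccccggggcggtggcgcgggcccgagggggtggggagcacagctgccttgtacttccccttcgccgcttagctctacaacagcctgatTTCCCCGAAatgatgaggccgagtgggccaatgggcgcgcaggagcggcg
Ifi47: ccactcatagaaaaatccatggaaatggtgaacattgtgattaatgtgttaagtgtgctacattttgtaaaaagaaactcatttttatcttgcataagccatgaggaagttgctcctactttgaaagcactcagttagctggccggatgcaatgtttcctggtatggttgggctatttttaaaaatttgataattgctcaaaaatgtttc
Trim25: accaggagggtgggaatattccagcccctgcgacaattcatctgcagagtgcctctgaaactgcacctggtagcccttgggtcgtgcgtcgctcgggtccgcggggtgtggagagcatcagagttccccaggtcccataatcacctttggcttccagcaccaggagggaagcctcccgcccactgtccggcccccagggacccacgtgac

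**Figure D1:**
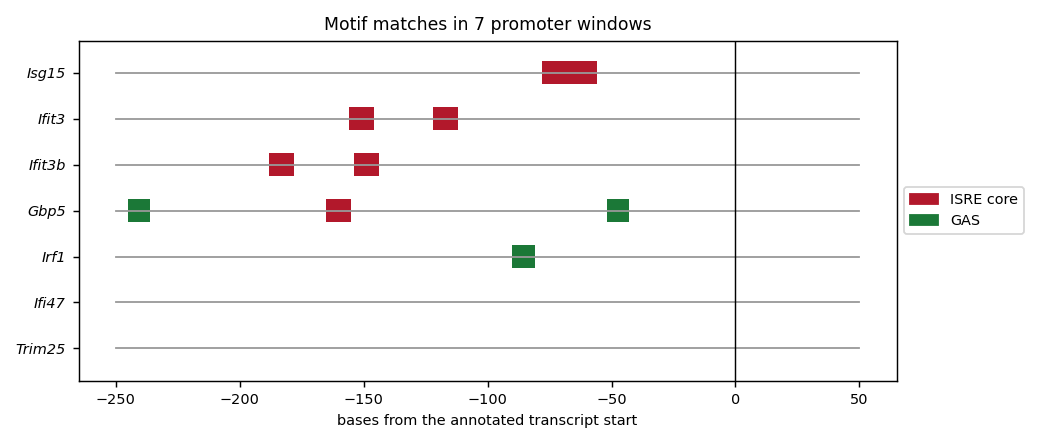
Matches of the ISRE core (red) and the GAS (green) in the promoter windows of 7 genes, placed by bases from the annotated transcript start (x axis, start at 0). Isg15 holds 3 adjoining ISRE cores, Ifit3 and Ifit3b a pair each, and the lines of Ifi47 and Trim25 carry no match.

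Libraries held 31534625 to 41730688 counts. Levels are CPM (counts relative to library size) scaled by the TMM method, and values are listed in the order of replicates 23, 24, 26 and 27, then 3, 11 and 15, then 39, 40 and 41. Itgax was measured at 349, 318, 114 and 117 CPM in the transgenic, 542, 442 and 528 CPM in the parabiotic and 22.6, 56.9 and 53.7 CPM in the microglia libraries, so the gene of the sorted reporter was highest in both CD11c groups. Cx3cr1 stood at 268 to 2790 CPM in transgenic, 465 to 830 CPM in parabiotic and 1580 to 1860 CPM in microglia libraries. Sall1, a factor of microglial identity, was measured at 139, 165, 85.6 and 26.1 CPM in the transgenic, 0.259, 0.152 and 0.395 CPM in the parabiotic and 467, 375 and 318 CPM in the microglia libraries. The 9 microglia markers summed to 8611 to 20520 CPM in transgenic, 3985 to 5607 CPM in parabiotic and 28620 to 29600 CPM in microglia libraries. The 11 markers of conventional dendritic cells summed to 4133 to 17130, 27050 to 34610 and 227 to 348 CPM in the same groups. Transgenic cells thus carried markers of both kinds, at levels between those of the other groups. The 7 monocyte markers summed to 405 to 1605 CPM in transgenic, 1271 to 1504 CPM in parabiotic and 70.8 to 150 CPM in microglia libraries. The 10 neutrophil markers summed to 0.458 to 19.0, 6.35 to 851 and 0.339 to 0.886 CPM in the same groups, with Camp and Ngp at 0 in all transgenic libraries and Ly6g, Elane and Retnlg at 0 in all microglia. Natural killer cell markers (8 genes) summed to 10.2 to 38.6, 62.2 to 91.7 and 0.253 to 5.31 CPM and T cell markers (8 genes) to 3.17 to 24.5, 13.6 to 36.5 and 3.16 to 15.0 CPM in transgenic, parabiotic and microglia libraries. Sums highest in microglia included those of 6 astrocyte markers (24.1 to 57.4, 6.23 to 9.55 and 106 to 179 CPM in transgenic, parabiotic and microglia libraries), of 6 B cell markers (15.3 to 192.5, 86.8 to 159 and 212 to 274 CPM) and of 10 plasmacytoid dendritic cell markers (451 to 728, 405 to 482 and 817 to 850 CPM). So did those of 6 neuron markers (1.12 to 3.54, 0.152 to 1.00 and 3.99 to 4.94 CPM). The same held for 6 endothelial markers (16.8 to 41.95, 29.9 to 40.8 and 44.15 to 49.2 CPM). Of the astrocyte sum Slc1a3 made up 89.0 to 151 CPM in microglia, of the B cell sum Ighm 194 to 256 CPM and of the plasmacytoid sum Lair1 633 to 686 CPM. Within the plasmacytoid list Bcl11a, Spib, Ly6d, Ccr9 and Runx2 were called higher in parabiotic cells than in microglia (edgeR). Bcl11a, for example, averaged 15.7 CPM in parabiotic cells and 0.622 CPM in microglia. Pacsin1, Cox6a2 and Lair1 were called lower, Tcf4 was not called and Klk1 was not tested. Transgenic replicates 26 and 27 bear library numbers that do not adjoin those of the other 8, and they differed from each other. The labels name no run or batch for any library. Their dendritic cell markers summed to 4133 and 6966 CPM in replicates 26 and 27, against 15830 and 17130 CPM in replicates 23 and 24. Their monocyte markers summed to 405 and 1605 CPM, against 610 and 767 CPM. The gap between replicates 26 and 27 lay in F13a1 (157 and 947 CPM) and Chil3 (78.3 and 499 CPM), whereas Ccr2 (147 and 131 CPM) and Ly6c2 (8.76 and 6.09 CPM) were higher in replicate 26. The part of cell composition and of the library numbers in the results was not tested. Where a group differs from microglia, fewer expressing cells and less RNA per cell cannot be told apart.

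Interferon-stimulated genes as a set were lower in both CD11c populations than in microglia. The mean over the 51 genes of log2 CPM was 5.52, 5.69, 6.06 and 4.22 in the transgenic, 5.39, 5.26 and 5.40 in the parabiotic and 6.79, 6.39 and 6.88 in the microglia libraries. Each transgenic and each parabiotic library lay below each microglia library. The group means were 5.37 ± 0.80 (SD, n = 4) in transgenic cells, 5.35 ± 0.08 (SD, n = 3) in parabiotic cells and 6.69 ± 0.26 (SD, n = 3) in microglia. The differences were -1.32 for transgenic against microglia, -1.34 for parabiotic against microglia and 0.02 for transgenic against parabiotic, and no p is given for this mean because the genes were chosen with results of these data known. The last difference lies within the spread of the transgenic libraries, and it was -0.26 without replicate 26 and 0.41 without replicate 27. Against microglia the transgenic difference was -1.57 without replicate 26 and -0.92 without replicate 27. Microglia had the highest group mean for 48 of the 51 genes, and the exceptions were Trim25, Ifi47 and Ifitm3, each highest in parabiotic cells. The median coefficient of variation between libraries over the 51 genes was 46.1% in transgenic, 11.0% in parabiotic and 25.3% in microglia libraries, against 31.2%, 14.5% and 16.2% over all genes tested.

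**Figure D2:**
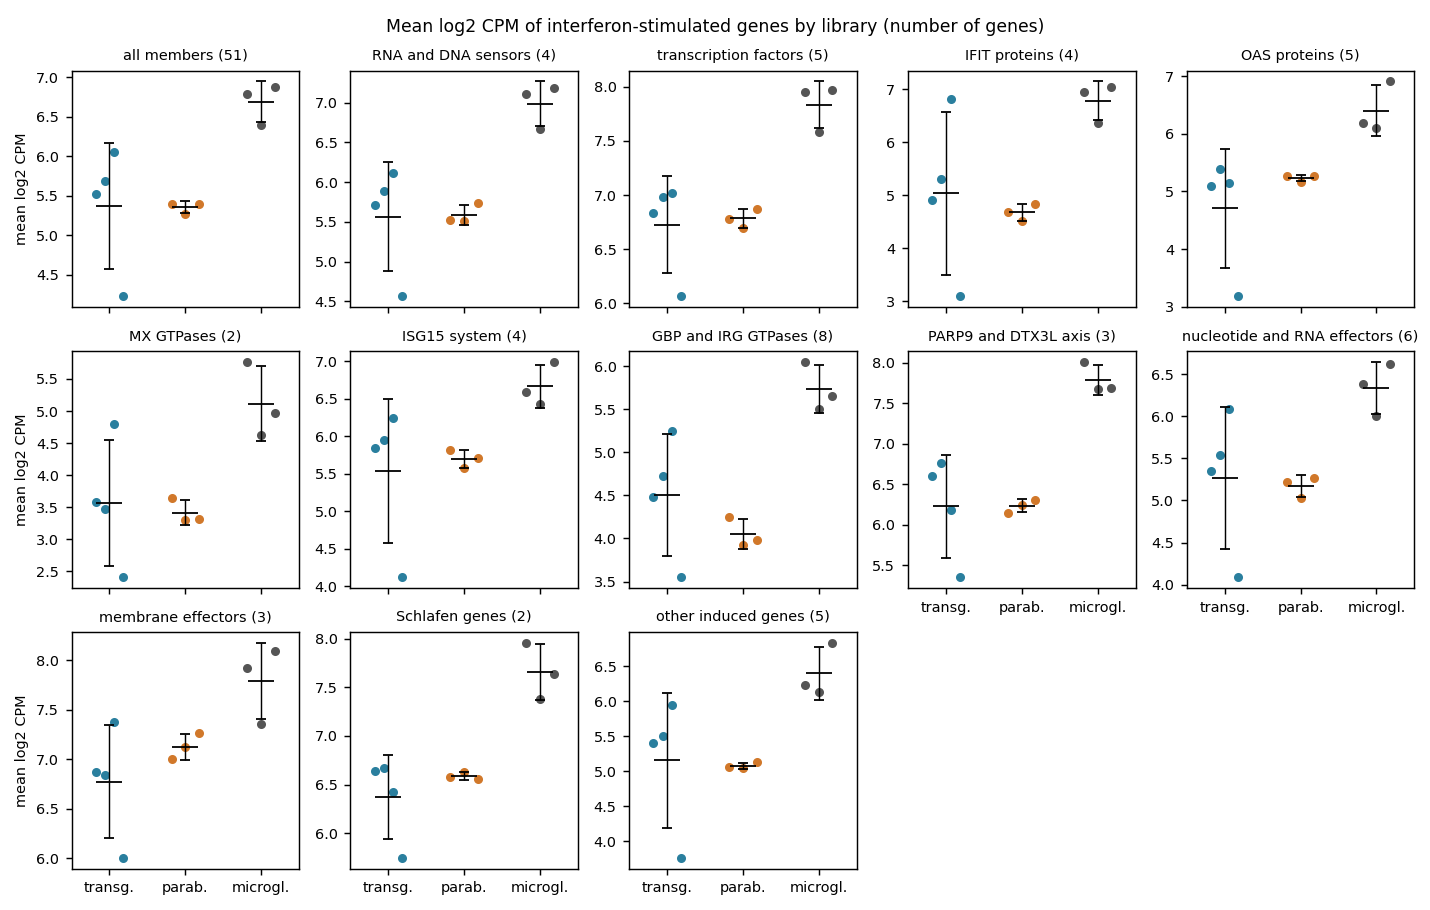
Mean log2 CPM (y axis) over all 51 genes and over 12 role groups, with the number of genes in brackets, in transgenic (transg.), parabiotic (parab.) and microglia (microgl.) libraries. Each point is a library, bars are means ± SD, and y axes differ between panels and do not start at 0. Over all 51 genes the microglia libraries sit between 6.39 and 6.88, above the 3 parabiotic libraries (5.26 to 5.40) and the 4 transgenic libraries (4.22 to 6.06).

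**Figure D3:**
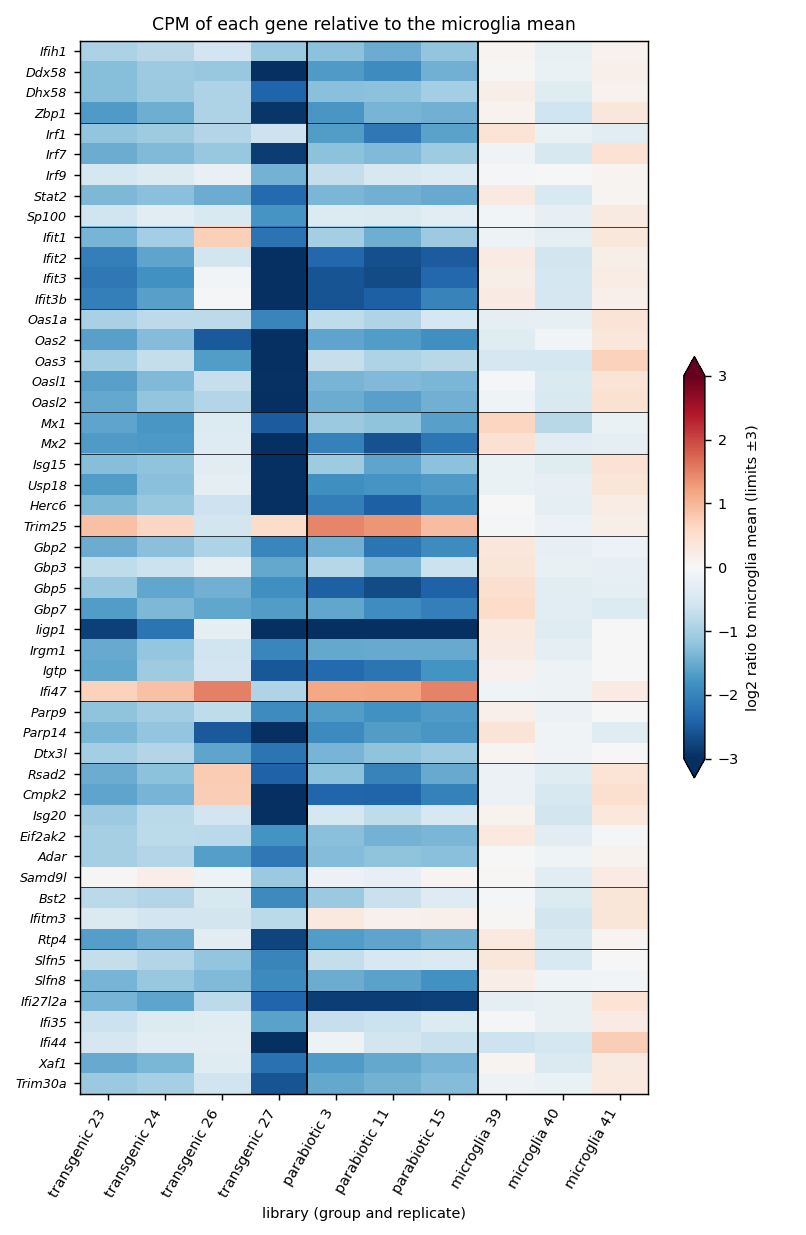
log2 ratio of the CPM of each gene in each library to its mean over the 3 microglia libraries, with colours ending at -3 and 3. Rows are the 51 genes by role and columns the 10 libraries, and transgenic replicate 27 is the lowest library of all for 43 genes, while Trim25 and Ifi47 stand out as rows above the microglia mean in parabiotic cells.

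The first comparison set parabiotic CD11c+ cells, which entered the brain from the blood, against microglia. It describes which transcripts differ between these infiltrating and resident cells after ischemia. The 2 groups also differ in age, genotype, reporter and parabiosis, which cannot be told apart from origin. 32 of the 51 genes were lower in parabiotic cells at an adjusted p below 0.05 (edgeR quasi-likelihood test), against 17.9% of all genes tested, and 2 were higher, against 17.4%. In either direction 34 genes were called, against 35.3% of all genes, and 17 were not called. Libraries of the 2 groups did not overlap for 43 genes that were lower (29.7% of all genes) and 2 that were higher (30.5%), 45 in all (60.3%). The median log2 fold change over the 51 genes was -1.44, against -0.02 over all genes tested, with 48 values below 0 and a range of -3.96 for Iigp1 to 1.28 for Ifi47. Leaving out single libraries gave 23 (without parabiotic replicate 3) to 43 called genes (without transgenic replicate 27). Those 2 settings called 4048 of 15932 and 6458 of 14920 of all genes tested.

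The second comparison set transgenic CD11c+ cells, which hold reporter-positive cells of any origin, against the same microglia libraries. These groups also differ in genotype and reporter, which cannot be told apart from cell type. 25 genes were lower, against 4.79% of all genes tested, and 26 were not called. 0 were higher, against 8.88% of all genes, and likewise 0 at an unadjusted p below 0.05 and 0 by DESeq2 and by limma-voom. All 25 calls in either direction compare with 13.7% of all genes. Libraries did not overlap for 36 genes, all lower in transgenic cells, against 14.7% of all genes lower, 15.6% higher and 30.3% in either direction. The median log2 fold change was -1.30, against 0.02 over all genes tested. The count was 12 without microglia replicate 39, 15 without microglia replicate 41 and 41 without transgenic replicate 26. Over all genes tested these settings called 746 of 15870, 1377 of 16052 and 1908 of 14964, against 2070 of 15151 with all libraries. With a term for transgenic replicates 26 and 27, which leaves the transgenic mean to replicates 23 and 24, 14 of the 25 genes were called and no other, and values from this fit are given below as under the term. With both of these replicates left out, a setting chosen after seeing the data, 45 genes were called. The fit with the term called 1303 of all 15151 genes, and leaving both out called 2417 of 15446. Fold changes of both comparisons rest on the same microglia libraries and are given side by side below.

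**Figure D4:**
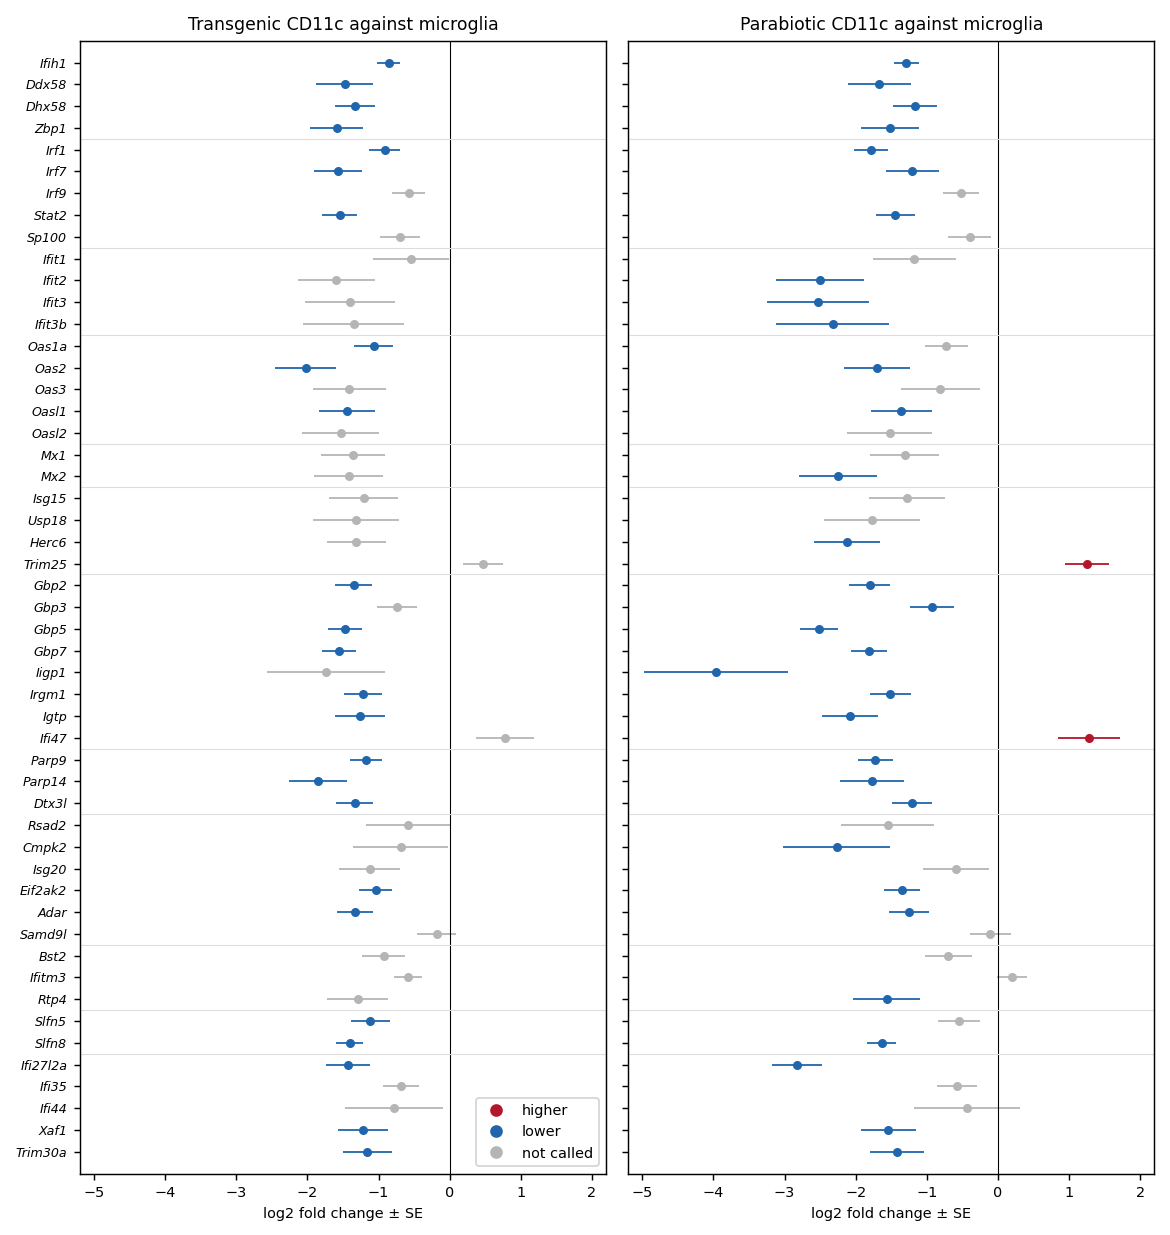
log2 fold change ± SE of each of the 51 genes in transgenic (left) and parabiotic (right) CD11c+ cells against microglia, in edgeR fits. Blue marks genes called lower and red genes called higher at an adjusted p below 0.05, grey the others. In the left panel 25 points are blue and none is red, and in the right panel 32 are blue and 2 are red.

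Sensors of foreign nucleic acids were lower in both populations, with 4 of 4 genes called in each comparison. Ddx58 (RIG-I, a sensor of viral RNA; chr4:40203773-40239828, minus strand) was measured at 68.0, 76.8, 74.6 and 15.8 CPM in the transgenic, 50.4, 44.3 and 59.9 CPM in the parabiotic and 167, 142 and 182 CPM in the microglia libraries. Transgenic replicate 27 was the lowest of all libraries, and every microglia library lay above every other library. The log2 fold changes were -1.48 ± 0.41, adjusted p = 0.0353, in transgenic and -1.67 ± 0.45, adjusted p = 0.0135, in parabiotic cells. Zbp1, a sensor of nucleic acids in the Z form, stood at 39.3, 45.8, 66.6 and 16.8 CPM in the transgenic, 37.5, 48.5 and 46.8 CPM in the parabiotic and 136, 83.5 and 161 CPM in the microglia libraries, and the groups did not overlap with microglia. Its log2 fold changes were -1.59 ± 0.37, adjusted p = 0.0183, and -1.52 ± 0.41, adjusted p = 0.0135, in the same order. Ifih1 (MDA5, a sensor of long double-stranded RNA) had log2 fold changes of -0.85 ± 0.16, adjusted p = 0.00662, and -1.29 ± 0.18, adjusted p = 0.000237, with groups apart in both comparisons. Dhx58 (LGP2, their regulator) had -1.33 ± 0.28 and -1.16 ± 0.31. Against microglia, single libraries ended the transgenic calls of Ddx58 (without parabiotic 3, 11 or 15 or microglia 39, 40 or 41, adjusted p = 0.0544 to 0.114), Dhx58 (without microglia 39, adjusted p = 0.0625) and Zbp1 (without microglia 39 or 41, adjusted p = 0.0698 to 0.0728). They ended the parabiotic calls of Ddx58 (without parabiotic 11, adjusted p = 0.0556), Dhx58 (without parabiotic 3 or 11 or microglia 39, adjusted p = 0.0503 to 0.0517) and Zbp1 (without parabiotic 3 or microglia 41, adjusted p = 0.0528 to 0.0567). Under the term Ifih1 was called (-0.89 ± 0.18, adjusted p = 0.0153), while adjusted p was 0.197 for Ddx58, 0.07 for Dhx58 and 0.0822 for Zbp1.

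Of 5 transcription factor genes, 3 were lower in each comparison. Irf1 (chr11:53770014-53778374, plus strand), a primary target of interferon signalling that itself induces interferon genes, was measured at 121, 133, 151 and 181 CPM in the transgenic, 87.1, 62.4 and 91.2 CPM in the parabiotic and 369, 240.5 and 219.7 CPM in the microglia libraries. The 3 groups did not overlap, with transgenic cells between parabiotic cells and microglia, and replicate 27 was the highest transgenic library for this gene, as it was for no other of the 51. The log2 fold changes were -0.92 ± 0.22, adjusted p = 0.0208, in transgenic and -1.78 ± 0.24, adjusted p = 0.000235, in parabiotic cells against microglia. Irf7 (chr7:141262706-141266481, minus strand), the factor that amplifies production of interferon alpha, stood at 132, 148, 168 and 51.4 CPM in the transgenic, 158, 148 and 176 CPM in the parabiotic and 344, 266 and 501 CPM in the microglia libraries. Its log2 fold changes were -1.57 ± 0.34, adjusted p = 0.0129, and -1.20 ± 0.37, adjusted p = 0.0259. Stat2 (chr10:128270559-128292849, plus strand), a subunit of the ISRE-binding complex, stood at 96.5, 104, 87.7 and 48.5 CPM in the transgenic, 94.9, 90.9 and 85.9 CPM in the parabiotic and 299, 180.3 and 259 CPM in the microglia libraries. All transgenic and parabiotic values of both genes lay below all microglia values, and Stat2 had log2 fold changes of -1.55 ± 0.25, adjusted p = 0.00283, and -1.44 ± 0.27, adjusted p = 0.00195. Irf9 (chr14:55603571-55610030, plus strand), the subunit that contacts DNA, stood at 91.1, 99.7, 113 and 49.7 CPM in the transgenic, 80.3, 95.1 and 99.7 CPM in the parabiotic and 126, 130 and 139 CPM in the microglia libraries. Its groups did not overlap with microglia either, but it did not pass the test (-0.58 ± 0.23, adjusted p = 0.114, in transgenic and -0.52 ± 0.25, adjusted p = 0.13, in parabiotic cells). Sp100, a nuclear body protein, had -0.70 ± 0.28 and -0.40 ± 0.30 and was not called. Single libraries ended the calls of Irf1 (without microglia 39, adjusted p = 0.106) and Irf7 (without microglia 41, adjusted p = 0.0571) in transgenic and Irf7 (without parabiotic 3, 11 or 15 or microglia 39 or 41, adjusted p = 0.0541 to 0.105) in parabiotic cells. Under the term Irf1 (-1.12 ± 0.25, adjusted p = 0.02) and Stat2 (-1.30 ± 0.27, adjusted p = 0.0143) were called while Irf7 was at adjusted p = 0.0786.

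The IFIT genes, whose proteins bind viral RNA and stop its translation, were called lower for 0 of 4 genes in transgenic cells (edgeR, with 2 at an unadjusted p below 0.05, 1 by DESeq2 and 1 by limma-voom) and for 3 of 4 in parabiotic cells. Ifit2 (chr19:34550694-34576419, plus strand) was measured at 109, 149.6, 309.6 and 29.2 CPM in the transgenic, 87.7, 72.1 and 79.8 CPM in the parabiotic and 536, 310.2 and 507 CPM in the microglia libraries. The transgenic libraries spread from far below to just under the lowest microglia library, and the parabiotic libraries lay close together. The log2 fold changes were -1.59 ± 0.55, adjusted p = 0.072, in transgenic and -2.50 ± 0.62, adjusted p = 0.0089, in parabiotic cells. Ifit3 (chr19:34583531-34588731, plus strand) stood at 36.9, 46.2, 152 and 10.1 CPM in the transgenic, 27.02, 25.1 and 31.7 CPM in the parabiotic and 184, 112 and 189 CPM in the microglia libraries, with transgenic replicate 26 inside the range of microglia. Its log2 fold changes were -1.40 ± 0.63, adjusted p = 0.15, and -2.53 ± 0.72, adjusted p = 0.0178, in the same order. Ifit3b had -1.35 ± 0.71, adjusted p = 0.209, and -2.33 ± 0.80, adjusted p = 0.0421, and Ifit1, which was not called in either population, had -0.55 ± 0.53 and -1.18 ± 0.58. Of 50-base stretches of the Ifit3 transcripts, 51.2% also occur in Ifit3b, so reads of this pair may be split or dropped by the counting. Without transgenic replicate 26 all 4 were called lower in transgenic cells, with -2.27, adjusted p = 0.0118, for Ifit2, -2.42, adjusted p = 0.00722, for Ifit3, -2.36, adjusted p = 0.0279, for Ifit3b and -1.50, adjusted p = 0.00792, for Ifit1. Single libraries ended the parabiotic calls of Ifit3 (without parabiotic 3, 11 or 15, adjusted p = 0.051 to 0.0632) and Ifit3b (without transgenic 24 or parabiotic 3, 11 or 15 or microglia 39, 40 or 41, adjusted p = 0.0501 to 0.123).

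OAS enzymes make the second messenger that activates the nuclease RNase L, and the OAS-like proteins Oasl1 and Oasl2 lie beside them among the targets of interferon. Oas2 (chr5:120730333-120749853, minus strand) was measured at 25.2, 32.0, 13.7 and 6.19 CPM in the transgenic, 26.1, 24.4 and 22.1 CPM in the parabiotic and 60.9, 74.5 and 100 CPM in the microglia libraries. Groups did not overlap with microglia, and in contrast to the IFIT genes replicates 26 and 27 were both lower than 23 and 24. The log2 fold changes were -2.03 ± 0.43, adjusted p = 0.0114, in transgenic and -1.70 ± 0.47, adjusted p = 0.0154, in parabiotic cells. Oasl2 (chr5:114896936-114912234, plus strand) stood at 96.6, 122, 152 and 14.4 CPM in the transgenic, 98.7, 90.1 and 103 CPM in the parabiotic and 254, 202 and 380.1 CPM in the microglia libraries. It was apart from microglia as well but did not pass the test (-1.53 ± 0.54, adjusted p = 0.0804, and -1.52 ± 0.60, adjusted p = 0.0687). In all, 3 of 5 genes were lower in transgenic cells (Oas2, Oasl1 and Oas1a) and 2 of 5 in parabiotic cells (Oas2 and Oasl1), and libraries of all 5 lay below microglia in both comparisons. Oas1a shares 57.6% of its 50-base stretches with other genes, chiefly Oas1g, and its value (-1.07 ± 0.28 in transgenic cells) is uncertain for that reason. Calls ended without single libraries for Oas1a (without microglia 39, 40 or 41, adjusted p = 0.0619 to 0.109) and Oasl1 (without transgenic 23 or parabiotic 3, 11 or 15 or microglia 39, 40 or 41, adjusted p = 0.0555 to 0.116) in transgenic cells. They ended for Oas2 (without parabiotic 11 or 15 or microglia 41, adjusted p = 0.0515 to 0.0583) and Oasl1 (without parabiotic 3, 11 or 15 or microglia 39 or 41, adjusted p = 0.0664 to 0.107) in parabiotic cells. Under the term Oas2 was called (-1.46 ± 0.32, adjusted p = 0.0197), while adjusted p was 0.144 for Oas1a and 0.128 for Oasl1. Oas3 (-1.41 ± 0.51) was called in transgenic cells without replicate 24 (-1.75, adjusted p = 0.0465) and Oasl2 without replicate 27 (-1.16, adjusted p = 0.0112).

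The MX GTPases, which trap viral nucleocapsids, were called for 0 of 2 genes in transgenic cells (edgeR, with both at an unadjusted p below 0.05, both by DESeq2 and 1 by limma-voom) and for 1 of 2 in parabiotic cells. Mx2 (chr16:97535308-97560900, plus strand) was measured at 6.502, 6.39, 16.1 and 2.39 CPM in the transgenic, 5.17, 3.44 and 4.67 CPM in the parabiotic and 28.9, 16.6 and 17.5 CPM in the microglia libraries. It was not called in transgenic cells (-1.42 ± 0.48, adjusted p = 0.072) and lower in parabiotic cells (-2.24 ± 0.55, adjusted p = 0.00843). Its microglia values lay above all others, though transgenic replicate 26 came close to the lowest of them. Mx1 (chr16:97447035-97462907, minus strand) stood at 21.6, 19.2, 48.2 and 11.5 CPM in the transgenic, 29.6, 27.8 and 20.8 CPM in the parabiotic and 102, 36.2 and 55.9 CPM in the microglia libraries. Transgenic replicate 26 lay inside the microglia range, and neither log2 fold change passed (-1.36 ± 0.45, adjusted p = 0.0632, in transgenic and -1.31 ± 0.48, adjusted p = 0.0564, in parabiotic cells). Without transgenic replicate 26 both were called lower in transgenic cells, with -2.07, adjusted p = 0.00641, for Mx2 and -1.91, adjusted p = 0.00764, for Mx1.

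ISG15 is a ubiquitin-like protein that is attached to other proteins, and its system held genes of both directions. In transgenic cells 0 of 4 genes were called (edgeR, with 2 at an unadjusted p below 0.05, 1 by DESeq2 and 1 by limma-voom), and in parabiotic cells 1 was lower and 1 higher. Isg15 (chr4:156199424-156200818, minus strand) was measured at 35.2, 36.8, 67.0 and 8.26 CPM in the transgenic, 40.8, 28.4 and 36.3 CPM in the parabiotic and 74.3, 66.6 and 115 CPM in the microglia libraries. Its parabiotic libraries lay below microglia and transgenic replicate 26 overlapped with it, and it was not called (-1.21 ± 0.49, adjusted p = 0.115, in transgenic and -1.28 ± 0.54, adjusted p = 0.0859, in parabiotic cells). Herc6, the ligase that attaches ISG15 in the mouse, stood at 32.4, 37.5, 53.7 and 9.47 CPM in the transgenic, 19.5, 15.2 and 22.0 CPM in the parabiotic and 82.6, 68.7 and 96.1 CPM in the microglia libraries. It was not called in transgenic cells (-1.31 ± 0.41, adjusted p = 0.0585) and lower in parabiotic cells (-2.12 ± 0.47, adjusted p = 0.00466), though libraries did not overlap in either comparison. Usp18, which removes ISG15 and dampens the interferon receptor, had -1.31 ± 0.61 and -1.77 ± 0.67 and was not called. Trim25 (chr11:88999376-89020293, plus strand), a ubiquitin ligase that activates RIG-I, went the other way, at 267, 224, 99.1 and 212 CPM in the transgenic, 399, 362 and 275 CPM in the parabiotic and 142, 129 and 164 CPM in the microglia libraries. Transgenic replicate 26 lay below microglia and the transgenic value did not pass (0.47 ± 0.28, adjusted p = 0.274), whereas all parabiotic libraries lay above all microglia libraries and it was higher in parabiotic cells (1.25 ± 0.30, adjusted p = 0.00829). Trim25 was called in every alternative run for parabiotic cells, and in transgenic cells it was called higher without replicate 26 (0.67, adjusted p = 0.0316). Without the same library Isg15 (-1.71, adjusted p = 0.0375), Usp18 (-1.99, adjusted p = 0.0469) and Herc6 (-1.68, adjusted p = 0.0232) were called lower in transgenic cells.

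GBP and IRG proteins are large and small GTPases, induced chiefly by interferon gamma, that attack vacuoles of intracellular pathogens. Of these 8 genes 5 were lower in transgenic cells, and 7 were lower and 1 was higher in parabiotic cells. Beside them stand 4.79% of all genes lower in transgenic cells, and 17.9% lower and 17.4% higher in parabiotic cells. Gbp5 (chr3:142493978-142522344, plus strand) was measured at 20.1, 15.0, 16.2 and 12.3 CPM in the transgenic, 8.07, 6.93 and 8.26 CPM in the parabiotic and 61.8, 34.9 and 36.0 CPM in the microglia libraries. The 3 groups were apart from one another, with log2 fold changes of -1.48 ± 0.24, adjusted p = 0.00269, in transgenic and -2.51 ± 0.27, adjusted p = 4.84e-05, in parabiotic cells. Irgm1, a regulator of the IRG family, stood at 70.3, 90.3, 132 and 51.9 CPM in the transgenic, 69.7, 70.0 and 70.5 CPM in the parabiotic and 237, 167 and 198 CPM in the microglia libraries. The 3 parabiotic libraries differed by under 1 CPM, all libraries of both groups lay below microglia, and log2 fold changes were -1.22 ± 0.26, adjusted p = 0.0127, and -1.52 ± 0.29, adjusted p = 0.00206. Gbp7 stood at 24.1, 30.6, 26.4 and 24.4 CPM in the transgenic, 26.2, 21.3 and 18.7 CPM in the parabiotic and 113, 61.6 and 58.1 CPM in the microglia libraries, with -1.56 ± 0.23, adjusted p = 0.00188, and -1.81 ± 0.26, adjusted p = 0.000324. Its transgenic libraries lay close together, and 12.7% of its 50-base stretches occur in other genes. Iigp1, an effector of the IRG family, had the largest negative fold change of all 51 genes in parabiotic cells against microglia. It stood at 3.74, 5.72, 21.2 and 0.609 CPM in the transgenic, 2.96, 1.49 and 0.546 CPM in the parabiotic and 31.9, 20.4 and 26.02 CPM in the microglia libraries. The transgenic libraries spanned the range from parabiotic values to microglia, without a call (-1.74 ± 0.83, adjusted p = 0.171), and the parabiotic libraries were at 2.96 CPM or below (-3.96 ± 1.01, adjusted p = 0.0106). Igtp, another regulator of the family, had -1.26 ± 0.35, adjusted p = 0.0374, and -2.08 ± 0.39, adjusted p = 0.00195. Ifi47 (chr11:49076587-49096974, plus strand) was the exception, at 25.4, 29.0, 45.5 and 8.53 CPM in the transgenic, 35.4, 35.8 and 44.2 CPM in the parabiotic and 14.6, 14.3 and 18.7 CPM in the microglia libraries. Transgenic replicate 27 lay below microglia and the other 3 above it (0.78 ± 0.41, adjusted p = 0.215), while all parabiotic libraries lay above microglia (1.28 ± 0.44, adjusted p = 0.0412). Without transgenic replicate 26 Iigp1 was called lower in transgenic cells (-2.997, adjusted p = 0.0214), as was Gbp3 (-0.96, adjusted p = 0.0474), and limma-voom also called Iigp1. Without replicate 27 Ifi47 was called higher (1.09, adjusted p = 0.0124). Calls lost with 1 library left out were those of Irgm1 (without microglia 39, adjusted p = 0.067) and Igtp (without transgenic 23 or parabiotic 3, 11 or 15 or microglia 39, 40 or 41, adjusted p = 0.053 to 0.13) in transgenic cells. In parabiotic cells they were those of Gbp3 (without parabiotic 3 or 11 or microglia 39 or 40, adjusted p = 0.0567 to 0.155) and Ifi47 (without transgenic 23 or 24 or parabiotic 3, 11 or 15 or microglia 39, 40 or 41, adjusted p = 0.0501 to 0.141). Under the term Gbp2, Gbp5, Gbp7 and Irgm1 were called in transgenic cells and Igtp was at adjusted p = 0.13.

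PARP9 and DTX3L form a complex that marks chromatin and amplifies interferon signalling, and PARP14 is a related ADP-ribosyltransferase. All 3 genes were lower in both comparisons. Parp14 (chr16:35832874-35871544, minus strand) was measured at 104, 118, 46.8 and 27.9 CPM in the transgenic, 71.3, 84.2 and 80.2 CPM in the parabiotic and 348, 249 and 207 CPM in the microglia libraries. No library of either CD11c population reached the lowest microglia value, and log2 fold changes were -1.85 ± 0.41, adjusted p = 0.0145, in transgenic and -1.77 ± 0.45, adjusted p = 0.0106, in parabiotic cells. Parp9 (-1.18 ± 0.22 and -1.72 ± 0.24) and Dtx3l (-1.33 ± 0.26 and -1.21 ± 0.28) were likewise apart from microglia. Parp9 and Dtx3l overlap each other at their starts in the genome (chr16:35938470-35972605, plus strand, and chr16:35926511-35939151, minus strand), and 9.40% of the exon bases of Parp9 are also exon bases of Dtx3l, so without strand information reads there cannot be assigned to 1 of them. A single library ended the transgenic call of Parp14 (without microglia 39, adjusted p = 0.0781). Under the term all 3 genes were called, with -1.27 ± 0.26, adjusted p = 0.0145, for Parp14.

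Among effectors that act on nucleotides and RNA, Adar, which edits adenosine in double-stranded RNA, was measured at 109, 117, 68.9 and 48.7 CPM in the transgenic, 88.5, 93.5 and 90.1 CPM in the parabiotic and 217, 198 and 234 CPM in the microglia libraries. It lay below microglia in every library of both populations, with log2 fold changes of -1.33 ± 0.26, adjusted p = 0.00741, in transgenic and -1.26 ± 0.28, adjusted p = 0.00522, in parabiotic cells. Of its exon bases 16.8% overlap exons of Chrnb2. Eif2ak2 (PKR, a kinase that stops translation) had -1.04 ± 0.23, adjusted p = 0.0148, and -1.34 ± 0.26, adjusted p = 0.00199. Cmpk2, a mitochondrial nucleotide kinase beside Rsad2 in the genome, stood at 25.0, 28.5, 125 and 8.31 CPM in the transgenic, 14.4, 14.2 and 18.5 CPM in the parabiotic and 66.7, 54.1 and 105 CPM in the microglia libraries. Transgenic replicate 26 exceeded every microglia library, and only the parabiotic value passed (-0.69 ± 0.66, adjusted p = 0.495, in transgenic and -2.27 ± 0.75, adjusted p = 0.0363, in parabiotic cells). Rsad2 (chr12:26442746-26456452, minus strand), the antiviral enzyme viperin, stood at 53.2, 64.1, 253 and 27.9 CPM in the transgenic, 64.1, 37.3 and 52.2 CPM in the parabiotic and 133, 117 and 199.6 CPM in the microglia libraries. Replicate 26 was again the highest library, and Rsad2 was not called (-0.59 ± 0.59, adjusted p = 0.514, in transgenic and -1.55 ± 0.65, adjusted p = 0.0863, in parabiotic cells). Without transgenic replicate 26 both genes were called lower in transgenic cells, with log2 fold changes of -1.91, adjusted p = 0.0135, for Cmpk2 and -1.66, adjusted p = 0.00889, for Rsad2. Rsad2 was called lower in parabiotic cells without transgenic replicate 26 or 27 (adjusted p = 0.00432 and 0.0393). Isg20, an exonuclease, was not called (-1.13 ± 0.43 and -0.59 ± 0.47), but was lower in transgenic cells without replicate 27 (-0.80, adjusted p = 0.047). Samd9l, an antiviral regulator of translation, had fold changes near 0 (-0.18 ± 0.27 and -0.11 ± 0.29), whose signs differed between settings. Calls ended without single libraries for Eif2ak2 (without microglia 39, adjusted p = 0.0865) in transgenic and for Cmpk2 (without parabiotic 3, 11 or 15 or microglia 39, 40 or 41, adjusted p = 0.0546 to 0.105) in parabiotic cells. Under the term Adar was called (-0.94 ± 0.16, adjusted p = 0.00518) while Eif2ak2 was at adjusted p = 0.0783.

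Membrane effectors were called lower for 0 of 3 genes in transgenic cells (edgeR, with all 3 at an unadjusted p below 0.05, 3 by DESeq2 and 1 by limma-voom) and for 1 of 3 in parabiotic cells. Ifitm3 (chr7:141009586-141010770, minus strand), which blocks the entry of viruses through endosomes, was measured at 185, 166, 169 and 142 CPM in the transgenic, 307, 271 and 278 CPM in the parabiotic and 257, 170.4 and 319 CPM in the microglia libraries. 1 transgenic library lay above the lowest microglia library and the other 3 below it (-0.58 ± 0.20, adjusted p = 0.0666), and parabiotic and microglia libraries overlapped (0.20 ± 0.21, adjusted p = 0.498). Of its 50-base stretches 10.0% occur in other genes. Bst2 (tetherin, which holds virus particles at the cell surface) was not called in either comparison (-0.93 ± 0.30 and -0.70 ± 0.33). Rtp4, an interferon-induced chaperone of receptors, stood at 46.5, 51.7, 116 and 21.4 CPM in the transgenic, 45.4, 48.5 and 53.0 CPM in the parabiotic and 176, 105 and 153 CPM in the microglia libraries. It was not called in transgenic cells (-1.30 ± 0.42, adjusted p = 0.0637) and lower in parabiotic cells (-1.56 ± 0.47, adjusted p = 0.023). Without transgenic replicate 26 Rtp4 (-1.89, adjusted p = 0.00303) and Bst2 (-1.15, adjusted p = 0.0352) were called lower in transgenic cells, and without microglia replicate 40 Ifitm3 was (-0.82, adjusted p = 0.0283). Single libraries ended the parabiotic call of Rtp4 (without parabiotic 3, 11 or 15 or microglia 39 or 41, adjusted p = 0.0582 to 0.0764).

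The Schlafen genes code for regulators of RNA and growth in lymphoid and myeloid cells. Slfn8 was measured at 59.0, 70.7, 61.7 and 41.2 CPM in the transgenic, 54.6, 50.6 and 44.2 CPM in the parabiotic and 177, 141 and 146 CPM in the microglia libraries. Every library of both populations lay below every microglia library (-1.41 ± 0.19, adjusted p = 0.000901, in transgenic and -1.63 ± 0.20, adjusted p = 0.000138, in parabiotic cells). Slfn5 stood at 168, 147, 119.9 and 69.6 CPM in the transgenic, 166, 195 and 201 CPM in the parabiotic and 348, 198 and 274 CPM in the microglia libraries. It was lower in transgenic cells (-1.11 ± 0.28, adjusted p = 0.023) and not called in parabiotic cells (-0.54 ± 0.30, adjusted p = 0.179), where replicate 15 exceeded the lowest microglia library. Single libraries ended the transgenic call of Slfn5 (without microglia 39 or 41, adjusted p = 0.0625 to 0.124). Under the term Slfn8 was called (-1.25 ± 0.20, adjusted p = 0.00355) and Slfn5 was at adjusted p = 0.113. Of the 50-base stretches of Slfn8 and Slfn5, 14.6% and 11.1% occur in other genes.

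Among the other induced genes, Ifi27l2a (chr12:103442167-103443680, minus strand) was measured at 91.9, 80.8, 141 and 46.6 CPM in the transgenic, 34.2, 34.1 and 34.6 CPM in the parabiotic and 198, 208 and 322 CPM in the microglia libraries. Its parabiotic libraries were almost equal, all transgenic libraries lay above them and below microglia, and log2 fold changes were -1.43 ± 0.31, adjusted p = 0.0122, in transgenic and -2.82 ± 0.35, adjusted p = 0.000133, in parabiotic cells. Trim30a, a regulator of inflammatory signalling in the mouse, stood at 107, 117, 153 and 38.6 CPM in the transgenic, 80.1, 87.5 and 93.6 CPM in the parabiotic and 209, 202 and 285 CPM in the microglia libraries. No library of either population reached microglia, with -1.16 ± 0.35, adjusted p = 0.0484, and -1.42 ± 0.38, adjusted p = 0.0138. Xaf1, a promoter of apoptosis, was also lower in both (-1.22 ± 0.35 and -1.54 ± 0.39), while Ifi35 (-0.68 ± 0.26 and -0.58 ± 0.28) and Ifi44 (-0.78 ± 0.69 and -0.44 ± 0.74) were not called. Without single libraries the calls of Ifi27l2a (without microglia 41, adjusted p = 0.0557), Xaf1 (without transgenic 23, 24 or 27 or parabiotic 3, 11 or 15 or microglia 39, 40 or 41, adjusted p = 0.057 to 0.136) and Trim30a (without transgenic 23 or 24 or parabiotic 3, 11 or 15 or microglia 39, 40 or 41, adjusted p = 0.0534 to 0.141) were lost in transgenic cells. The parabiotic call lost was that of Trim30a (without parabiotic 3 or microglia 41, adjusted p = 0.0525 to 0.0535). Under the term Ifi27l2a was called (-1.49 ± 0.40, adjusted p = 0.0462), while Xaf1 was at adjusted p = 0.0782 and Trim30a at adjusted p = 0.207.

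Single libraries left out also added calls. Against microglia 15 further genes were lower and 1 was higher in transgenic cells without transgenic replicate 26, and 4 were lower and 1 was higher without replicate 27. In parabiotic cells 4 further genes were lower without transgenic replicate 26 and 9 without replicate 27, which belong to neither group of that comparison and enter it through the shared filter, scaling and estimate of the spread. The parabiotic genes were Ifit1, Mx1, Rsad2 and Usp18 without replicate 26, and Bst2, Ifi35, Irf9, Isg15, Mx1, Oas1a, Oasl2, Rsad2 and Usp18 without replicate 27, at adjusted p of 0.000722 to 0.0393. Mx1 was also called in parabiotic cells without microglia replicate 40 (-1.62, adjusted p = 0.0406). Other settings ended further calls. Without a filter on low counts, Ddx58, Oasl1 and Trim30a lost their calls in transgenic cells and Ifit3, Ifit3b, Oasl1, Iigp1, Ifi47, Cmpk2 and Rtp4 theirs in parabiotic cells. With limma-voom Ifit3b and Ifi47 were not called in parabiotic cells, and Ifi47 was also lost with upper quartile scaling and with a filter of at least 5 CPM in at least 3 libraries. With transgenic cells and microglia fitted alone, Ddx58, Oas1a, Oasl1, Igtp, Slfn5, Xaf1 and Trim30a lost their calls. 10 of the 25 genes called in transgenic cells kept their call in every alternative run, planned or added (Ifih1, Stat2, Oas2, Gbp2, Gbp5, Gbp7, Parp9, Dtx3l, Adar and Slfn8), and 20 of the 34 called in parabiotic cells did.

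**Figure D5:**
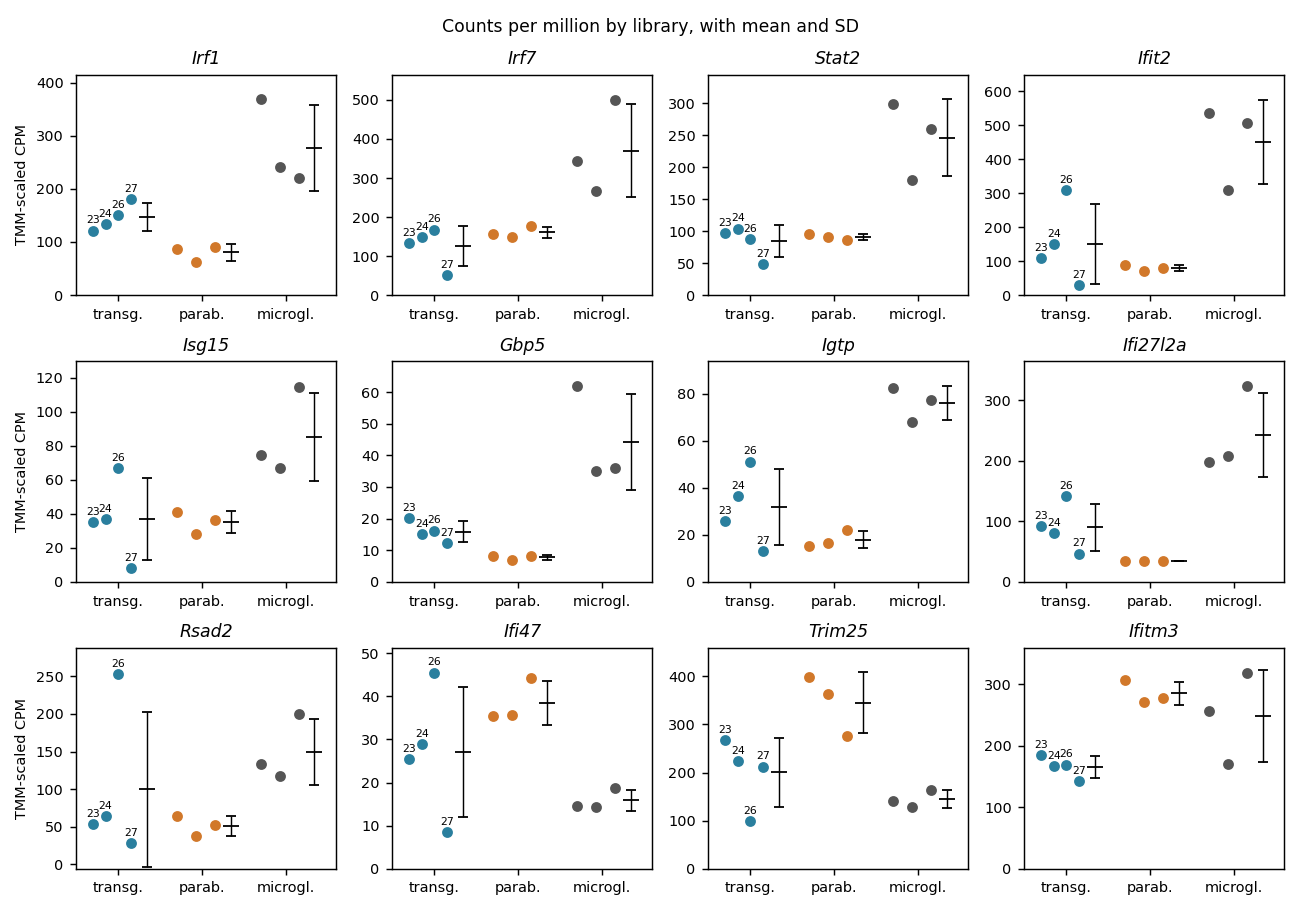
TMM-scaled CPM (y axes, from 0 or just below where an error bar reaches there) of 12 genes in each library of the transgenic (transg.), parabiotic (parab.) and microglia (microgl.) groups, with mean ± SD to the right of the points and replicate numbers over the transgenic points. Most panels show microglia highest, Ifi47 and Trim25 show parabiotic cells highest, and Rsad2 shows transgenic replicate 26 at 253 CPM above all microglia libraries.

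Per kilobase of exon, the mean levels of Ifitm3, Bst2 and Ifi27l2a were the 3 highest of the 51 genes in every group. Ifitm3 led in transgenic (244 CPM per kb) and parabiotic cells (421 CPM per kb), and Ifi27l2a led in microglia (524 CPM per kb). Bst2 had 188, 221 and 358 CPM per kb in transgenic cells, parabiotic cells and microglia. At the low end Iigp1 had 1.34, 0.286 and 4.48 CPM per kb and Ifi44 had 2.03, 2.57 and 3.49 CPM per kb in the same order.

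The third comparison set transgenic against parabiotic CD11c+ cells, 2 sorts on the same reporter. The groups differ in age, in the genotype of the host mouse, in parabiosis and in the marker sums given above. These cannot be told apart. 3 of the 51 genes were higher in transgenic cells, against 7.63% of all genes tested, 1 was lower, against 2.42%, and 47 were not called, so 4 calls stand against 10.1% of all genes. Libraries did not overlap for 4 genes that were higher (12.4% of all genes) and 2 that were lower (10.3%), 6 in all against 22.7%. The called counts lie near the background shares and do not set the 51 genes apart from all genes, while fewer were without overlap. In transgenic libraries these genes also varied more than all genes tested (median coefficient of variation 46.1%, against 31.2%). The median log2 fold change was 0.19, against 0.04 over all genes tested. Ifi27l2a had the largest called difference, with 91.9, 80.8, 141 and 46.6 CPM in the transgenic libraries, against 34.2, 34.1 and 34.6 CPM in the parabiotic libraries (1.39 ± 0.32, adjusted p = 0.0186). Gbp5 stood at 20.1, 15.0, 16.2 and 12.3 CPM in the transgenic libraries, against 8.07, 6.93 and 8.26 CPM in the parabiotic libraries (1.04 ± 0.25, adjusted p = 0.0211). Irf1 stood at 121, 133, 151 and 181 CPM in the transgenic libraries, against 87.1, 62.4 and 91.2 CPM in the parabiotic libraries (0.87 ± 0.23, adjusted p = 0.0325). All 3 were higher in each transgenic than in each parabiotic library. Ifitm3, at 185, 166, 169 and 142 CPM in the transgenic libraries, against 307, 271 and 278 CPM in the parabiotic libraries, was lower in each transgenic library (-0.78 ± 0.20, adjusted p = 0.0268). Under the term Gbp5 (1.18 ± 0.27, adjusted p = 0.0206) and Ifi27l2a (1.33 ± 0.37, adjusted p = 0.049) were called, and Irf1 (0.66 ± 0.24, adjusted p = 0.103) and Ifitm3 (-0.70 ± 0.23, adjusted p = 0.0807) were not. Without parabiotic replicate 3, 11 or 15 edgeR called 0 of the 51 genes in each case, with 7, 5 and 7 genes at an unadjusted p below 0.05, 3, 3 and 4 called by DESeq2 and 0 by limma-voom. Of all genes tested edgeR then called 830 of 15932, 897 of 15932 and 905 of 15995. Without transgenic replicate 27 it called 12 genes, with a term for replicates 26 and 27 it called 2, and with both left out 7. These settings called 2510 of 14920, 1619 of 15151 and 3482 of 15446 of all genes tested. Single libraries ended the calls of Irf1 (without transgenic 26 or parabiotic 3, 11 or 15, adjusted p = 0.0698 to 0.144), Gbp5 (without transgenic 23 or parabiotic 3, 11 or 15, adjusted p = 0.0506 to 0.098), Ifitm3 (without transgenic 24 or parabiotic 3, 11 or 15, adjusted p = 0.0539 to 0.111) and Ifi27l2a (without parabiotic 3, 11 or 15, adjusted p = 0.0741 to 0.0783).

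Within the transgenic group the set varied mainly between replicates 26 and 27. 49 of the 51 genes were higher in replicate 26 than in 27, and 37 were over 2-fold higher, against 13.2% of all genes tested. The median log2 ratio of replicate 26 over 27 was 1.60, against 0 over all genes, and ran from -1.10 for Trim25 to 4.91 for Iigp1. Irf1 and Trim25 were the genes higher in replicate 27. Replicates 23 and 24 differed little, with a median log2 ratio of 23 over 24 of -0.19 and 0 genes over 2-fold apart. Replicate 27 was the lowest of the 4 libraries for 48 genes and replicate 26 the highest for 32. Ifit1, Ifit2, Ifit3, Ifit3b, Iigp1, Rsad2, Cmpk2, Mx1, Mx2, Rtp4 and Xaf1 were over 2-fold higher in replicate 26 than in each of the other 3. In contrast, Oas2, Oas3, Parp14, Dtx3l, Adar, Stat2, Samd9l, Slfn5 and Trim25 were lower in replicate 26 than in 23 and 24. All 9 microglia markers were higher in replicate 26 than in 27 (Fcrls at 4218 and 1416 CPM), and of the 7 monocyte markers 2 were higher and 5 lower. No test was made of a difference between single libraries.

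Other genes of the pathway were counted from lists of ligands, receptors, signalling and induction genes and further targets. Of 105 tested genes, 8 were higher and 30 lower in transgenic cells than in microglia, 19 were higher and 39 lower in parabiotic cells than in microglia, and 5 were higher and 4 lower in transgenic than in parabiotic cells. In transgenic cells against microglia these are 7.62% higher and 28.6% lower, beside 8.88% and 4.79% of all genes tested. In parabiotic cells against microglia they are 18.1% and 37.1%, beside 17.4% and 17.9%. In transgenic against parabiotic cells they are 4.76% and 3.81%, beside 7.63% and 2.42%, and the 9 calls in either direction (8.57%) stand beside 10.1%. Against microglia, the 38 calls in transgenic cells became 11, 17 and 18 without microglia replicate 39, 40 and 41. Calls over all genes tested were then 746 of 15870, 775 of 15891 and 1377 of 16052. Against parabiotic cells, the 9 calls became 19 without transgenic replicate 27 and 4 without parabiotic replicate 3, beside 2510 of 14920 and 830 of 15932 genes over all. The further targets had median log2 fold changes of -0.78 in transgenic and -0.66 in parabiotic cells against microglia over 69 tested genes.

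Of the ligands, Ifnb1 (interferon beta) was counted in transgenic cells and microglia and in no parabiotic library. It had 7, 26, 23 and 47 counts in the transgenic, 0, 0 and 0 in the parabiotic and 48, 37 and 31 counts in the microglia libraries. With a floor of 3 counts over the parabiotic group, parabiotic cells were at least 39.1-fold lower than microglia (adjusted p = 0.000511) and transgenic cells at least 22.5-fold higher than parabiotic cells (adjusted p = 0.00341), where the floor covers counting error only. Transgenic cells and microglia overlapped and did not pass the test (adjusted p = 0.345). Ifng had 3 counts in parabiotic replicate 11, 3 in microglia replicate 40 and 0 in every other library, and the other 5 ligand genes analysed had at most 4 counts in any library.

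Of 6 receptor genes, 1 was higher in transgenic cells and 3 were higher in parabiotic cells, and 0 were lower in either (edgeR, with 0 lower at an unadjusted p below 0.05 and 0 by DESeq2 and by limma-voom). Of all genes tested, 8.88% were higher and 4.79% lower in transgenic cells, and 17.4% higher and 17.9% lower in parabiotic cells. With 6 genes, a count of 0 lower does not set the receptors apart from all genes. Ifnar1, a chain of the type I receptor, was measured at 246, 258, 159 and 269.9 CPM in the transgenic, 332, 311 and 295 CPM in the parabiotic and 165, 176 and 159 CPM in the microglia libraries. Transgenic replicate 26 overlapped with microglia (0.48 ± 0.18, adjusted p = 0.0922), and every parabiotic library lay above every microglia library (0.91 ± 0.19, adjusted p = 0.00375). Il10rb, a shared chain of the lambda and IL-10 receptors, had 0.54 ± 0.16, adjusted p = 0.0227, in parabiotic cells. Ifnlr1, the specific lambda chain, stood at 2.32, 2.05, 0.177 and 0.268 CPM in the transgenic, 1.72, 3.74 and 4.13 CPM in the parabiotic and 0.113, 0.0614 and 0.0633 CPM in the microglia libraries, with 8 counts over all microglia libraries. Its log2 fold changes were 3.85 ± 1.01, adjusted p = 0.0295, in transgenic and 5.26 ± 1.06, adjusted p = 0.00276, in parabiotic cells. Single libraries ended the transgenic call of Ifnlr1 (without microglia 39, 40 or 41, adjusted p = 0.0907 to 0.131). They ended the parabiotic call of Il10rb (without parabiotic 3, 11 or 15 or microglia 39 or 40, adjusted p = 0.0519 to 0.095). Ifnlr1 was also not called in transgenic cells by limma-voom, nor Il10rb in parabiotic cells with upper quartile scaling or no filter.

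Of 12 genes of signal transduction, 1 was lower in transgenic cells, and 3 were higher and 2 lower in parabiotic cells. In transgenic cells this is 8.33%, beside 4.79% of all genes lower and 13.7% called in either direction. In parabiotic cells the shares are 25.0% higher and 16.7% lower, beside 17.4% and 17.9%, and 41.7% in either direction, beside 35.3%. Socs3, an inhibitor of cytokine signalling, stood at 571, 595, 531 and 553 CPM in the transgenic, 342, 343 and 366 CPM in the parabiotic and 1115, 832 and 939 CPM in the microglia libraries, with transgenic cells between and apart from the other groups (-0.77 ± 0.14, adjusted p = 0.00483, in transgenic and -1.46 ± 0.15, adjusted p = 4.08e-05, in parabiotic cells against microglia). Jak2, the kinase of the gamma receptor, stood at 177, 169, 73.8 and 171 CPM in the transgenic, 286, 206 and 242 CPM in the parabiotic and 87.5, 83.8 and 80.3 CPM in the microglia libraries (0.82 ± 0.27, adjusted p = 0.0641, in transgenic and 1.54 ± 0.29, adjusted p = 0.00178, in parabiotic cells). Transgenic replicate 26 lay below microglia for Jak2, while the other libraries of both CD11c groups lay above. Under the term Jak2 was called higher in transgenic cells (1.04 ± 0.28, adjusted p = 0.0492). Cish (1.38 ± 0.49, adjusted p = 0.0469), an inhibitor of STAT5 signalling, and Ptpn2 (0.49 ± 0.16, adjusted p = 0.0316), a phosphatase of JAK and STAT proteins, were higher in parabiotic cells. Calls lost without single libraries were Ptpn2 (without parabiotic 3, 11 or 15 or microglia 39, 40 or 41, adjusted p = 0.0505 to 0.0995) and Cish (without parabiotic 3, 11 or 15 or microglia 39 or 40, adjusted p = 0.0829 to 0.158). Without a filter on low counts Ptpn2 and Cish were not called, Ptpn2 and Cish were not called with upper quartile scaling, and Cish was not called with the stricter filter.

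Among induction genes and further targets, Cxcl10, a chemokine that attracts T cells, had the largest negative fold change in parabiotic cells against microglia. It was measured at 137, 122, 414 and 63.1 CPM in the transgenic, 18.6, 10.5 and 16.8 CPM in the parabiotic and 288, 238 and 398 CPM in the microglia libraries. Parabiotic libraries lay far below all others, and transgenic libraries overlapped with microglia (-0.74 ± 0.50, adjusted p = 0.328, in transgenic and -4.33 ± 0.62, adjusted p = 0.000335, in parabiotic cells against microglia, and 3.59 ± 0.59, adjusted p = 0.00289, in transgenic against parabiotic cells). Tlr3, a sensor of double-stranded RNA, stood at 67.6, 68.3, 72.4 and 15.95 CPM in the transgenic, 16.8, 24.8 and 31.4 CPM in the parabiotic and 176, 123 and 143 CPM in the microglia libraries, and it was lower in parabiotic cells than in microglia (-2.60 ± 0.47, adjusted p = 0.00157). Tlr7, a sensor of single-stranded RNA, stood at 240.2, 250.3, 290.1 and 374 CPM in the transgenic libraries, against 102, 136 and 127 CPM in the parabiotic libraries (1.25 ± 0.19, adjusted p = 0.00203). Slfn9 was lower in parabiotic cells than in microglia (-2.51 ± 0.37, adjusted p = 0.000403) and higher in transgenic than in parabiotic cells (1.46 ± 0.34, adjusted p = 0.0206). In transgenic cells Gbp4 (-1.84 ± 0.42), Gbp9 (-1.78 ± 0.32) and Znfx1, an RNA helicase (-1.62 ± 0.27), had the largest negative fold changes against microglia.

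Of the 69 further targets tested, 7 (10.1%) were higher in transgenic and 11 (15.9%) in parabiotic cells than in microglia. These shares stand beside 8.88% and 17.4% of all genes tested. More of the 69 were lower, 24 (34.8%) in transgenic and 29 (42.0%) in parabiotic cells, beside 4.79% and 17.9% of all genes. The 3 with the largest rises, where the higher group averaged 5 CPM or more, were Ifitm1, Ifitm2 and Slfn4. Ifitm1, a relative of Ifitm3 at the plasma membrane, was measured at 47.9, 32.1, 6.38 and 57.2 CPM in the transgenic, 233, 173 and 146 CPM in the parabiotic and 0.311, 0.246 and 0.0950 CPM in the microglia libraries. Microglia were near 0, and log2 fold changes were 7.33 ± 0.81, adjusted p = 0.000312, in transgenic and 9.68 ± 0.88, adjusted p = 1.73e-05, in parabiotic cells, with transgenic below parabiotic cells (-2.36 ± 0.53, adjusted p = 0.0169). Ifitm2 stood at 67.8, 55.3, 31.1 and 91.5 CPM in the transgenic, 149, 142 and 121 CPM in the parabiotic and 12.4, 11.8 and 14.2 CPM in the microglia libraries (2.26 ± 0.31, adjusted p = 0.00106, and 3.42 ± 0.33, adjusted p = 2.7e-05, against microglia, and -1.16 ± 0.28, adjusted p = 0.0232, in transgenic against parabiotic cells). Slfn4, known from myeloid cells of the blood, stood at 5.67, 6.47, 7.95 and 3.95 CPM in the transgenic, 7.81, 14.4 and 9.08 CPM in the parabiotic and 0.706, 0.645 and 1.17 CPM in the microglia libraries (2.83 ± 0.37, adjusted p = 0.000798, and 3.63 ± 0.39, adjusted p = 4.78e-05). Ly6a, a surface marker of blood progenitors and other cells, was lower in transgenic than in parabiotic cells (-1.71 ± 0.29, adjusted p = 0.00387). The summed levels of dendritic cell and monocyte markers given above were higher in the same libraries, and their part in these values was not tested. The call lost against microglia without single libraries was that of Gbp4 (without microglia 39 or 40, adjusted p = 0.0566 to 0.0721). Against parabiotic cells the calls lost were those of Slfn9 (without parabiotic 3, 11 or 15, adjusted p = 0.0634 to 0.097), Ifitm1 (without parabiotic 3, adjusted p = 0.0676), Ifitm2 (without transgenic 24 or parabiotic 3, 11 or 15, adjusted p = 0.0516 to 0.0896) and Socs3 (without parabiotic 3 or 11, adjusted p = 0.0614 to 0.0615). Under the term Gbp4 was at adjusted p = 0.061 against microglia, and Slfn9 (adjusted p = 0.0549), Ifitm1 (0.074) and Ifitm2 (0.0678) were not called against parabiotic cells. Slfn9 was also not called by limma-voom, nor Ifitm1 without a filter on low counts, nor Slfn9 and Ifitm2 with transgenic and parabiotic cells fitted alone.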

How the data were processed

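RNA of sorted cells was amplified with SMART-Seq v4 and made into libraries with NEBNext Ultra, per the labels' protocols. The authors deposited raw counts per Ensembl gene, 1 column per library. FastQC 0.11.5, STAR 2.5.3a, DESeq2 and the genome build GRCm38 are named in the submitters' processing notes, while the counting program, its annotation, strand setting and treatment of multiply mapped reads were not given in the sources used here. SMART amplification without molecular identifiers means that counts are not independent molecules, so counting floors cover counting error only. Of 28585 gene IDs, 28492 were paired with a symbol through GENCODE M21 on GRCm38, from which coordinates were taken.

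The 10 libraries were grouped by their labels. Genes were filtered with edgeR 4.0.16 (filterByExpr by group), which kept 15151 and left out 13434, scaled by TMM and tested with robust quasi-likelihood fits of all groups together (R 4.3.3). Adjusted p is Benjamini-Hochberg over all 15151 genes, with a threshold of 0.05. Standard errors were derived from the same fits, and log2 CPM used a prior count of 2. The biological coefficient of variation was 0.317. The script was tested on simulated data. Alternatives were each library left out, RLE and upper quartile scaling, DESeq2 1.42.0, limma 3.58.1 with voom, no filter, a filter of 5 CPM in 3 libraries, fits of the 2 groups compared, a term for transgenic replicates 26 and 27 (called the term), non-robust dispersion and, added after seeing the data, both of those replicates left out.

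The members and lists were chosen with earlier results of these data known. Genes given in full were Irf1, Irf7, Irf9 and Stat2, the member of each role with the highest mean CPM, the called members of each role with the largest fold change in each direction, called ligands, receptors and signalling genes (1 of them not reported here), and the 3 called genes with the largest fold changes in each direction of the other pathway lists, where the higher group averaged 5 CPM or more. Isg15, Rsad2 and Tlr7 were added after their values were seen. Shared reads were judged by exact 50-base stretches of GENCODE transcripts and by overlapping exons. Promoter windows came from RefSeq on GRCm38.p6. Interferon ligands were analysed for 7 of 21 listed genes, and the others were not analysed here.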

Additional observations from a re-analysis of the deposited data

Results flagged for a closer look

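In groups of 4 libraries a value was singled out when its gap to the nearest of the other 3 exceeded 0.829 of the group's range (Dixon's ratio). 84 values of the transgenic group were examined, and chance singles out about 1 in 20. Transgenic replicate 27 stood apart on the low side for Ddx58 (15.8 CPM, gap 0.855 of the range), Ifi44 (0.828 CPM, gap 0.870), Tlr3 (15.95 CPM, gap 0.915) and the mean log2 CPM of the 5 OAS genes (3.18, gap 0.866). Transgenic replicate 26 stood apart on the high side for Rsad2 (253 CPM, gap 0.839) and on the low side for Jak2 (73.8 CPM, gap 0.926). Both replicates bear library numbers that do not adjoin those of the others, the labels name no run or batch, and the part of these numbers was not tested.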

How the results depend on the processing

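No paired analysis was possible because the groups share no replicate numbers. Over the libraries left out in turn, the count of the 51 genes called ran from 12 to 41 in transgenic cells against microglia, 23 to 43 in parabiotic cells against microglia and 0 to 12 in transgenic against parabiotic cells. For other pathway genes the ranges were 11 to 44, 46 to 69 and 4 to 19. Calls over all genes tested ran from 746 to 2684, from 3747 to 6458 and from 830 to 2510. The difference in mean log2 CPM of the set ran from -1.57 to -0.92, from -1.51 to -1.25 and from -0.26 to 0.41 in the same order. With a term for transgenic replicates 26 and 27 the counts were 14 of the 51 genes and 18 pathway genes in transgenic cells against microglia and 2 of the 51 in transgenic against parabiotic cells. With both replicates left out they were 45, 60 and 7, with 29 pathway genes in transgenic against parabiotic cells. DESeq2 called 16 pathway genes in that comparison, and fitting transgenic cells and microglia alone gave 16 pathway genes. The cause of these shifts was not tested. Genes without a call changed sign. The log2 fold change of Samd9l in transgenic cells ran from -0.350 to 0.0421 over the libraries left out (positive without transgenic replicate 27) and was 0.11 with the term and 0.104 with both left out. In parabiotic cells that of Samd9l ran from -0.284 to 0.0248 and that of Ifi44 from -0.680 to 0.121 (both positive without microglia replicate 41), and that of Ifitm3 from -0.0424 (without microglia replicate 40) to 0.405. Of 1178 gene results under alternatives in transgenic cells against microglia, 1038 kept direction and call, 79 lost the call and 58 gained it. Of 1318 in parabiotic cells against microglia these were 1178, 92 and 45, and of 239 in transgenic against parabiotic cells 204, 35 and 0. Upper quartile scaling moved the median log2 fold change of all genes to -0.10 in parabiotic cells against microglia, from -0.02 with TMM. With 3 or 4 libraries a group, small differences of variable genes were not detectable.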
